A study of Mus musculus with 8 samples.

Results

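Caveolae are flask-shaped pits of the plasma membrane. Caveolins insert into the inner leaflet of the membrane, cavins form a coat around them, and both are needed to shape the pit. EHD proteins are ATPases that remodel membranes: EHD2 sits at the neck of caveolae and holds them at the cell surface, while the other family members act mainly in the recycling of endosomes. Caveolae are known to be plentiful in endothelial cells, adipocytes, smooth muscle and fibroblasts.

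The genes described here are 8 of this machinery: the caveolins Cav1 and Cav2, the cavins Cavin1 and Cavin2, and the EHD genes Ehd1, Ehd2, Ehd3 and Ehd4. They were found by gene symbol among the probe sets annotated with exactly 1 gene, and all 8 of the 8 were measured, out of 18193 genes with such a probe set. The 8 genes had 21 probe sets, and each gene was represented by the one with the highest mean over the 8 arrays. The genes were chosen with earlier results of the same comparison known, in which Ehd2 was named for its difference between the groups. The difference of Ehd2 is therefore given as a description, with no test, and nothing is read from the number of the 8 genes that differ.

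RNA came from tumour-associated macrophages of 80-day-old FVB mice with mammary tumours driven by the PyMT transgene, a viral oncogene. The cells were sorted by flow cytometry for F4/80, a surface protein of macrophages. The E2f3-deleted group (genotype PyMT;Lys Cre:E2f3 f/f, 4 arrays, replicates A, E, F and H) carried E2f3 alleles flanked by recombination sites together with Lys Cre, a recombinase under lysozyme control that acts in the myeloid lineage. The control group (PyMT;E2f3 f/f, 4 arrays, replicates B, C, D and G) carried the same floxed alleles without Cre. No group had Cre without the floxed gene, so effects of Cre and of losing E2f3, a regulator of cell cycle genes, cannot be told apart. Nothing in the labels ties each array to its own mouse. The p-values therefore measure only how far these samples spread, which may be technical.

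Values are log2 RMA signals, and every difference is E2f3-deleted minus control. E2f3 itself averaged 7.63 ± 0.12 in E2f3-deleted macrophages and 7.67 ± 0.11 in controls (SD, n = 4 each) at its brighter probe set. The deleted part of the gene is not stated in the labels, so this probe set does not check the genotypes. Of 14 macrophage markers fixed as a list, all had a probe set that passed the filter on mean signal, and the list medians were 13.05 to 13.49 in E2f3-deleted and 13.24 to 13.46 in control arrays. Array H stood somewhat apart: its mean correlation with the other E2f3-deleted arrays was 0.983, against 0.990 to 0.991 for A, E and F, and 0.994 to 0.995 within the controls. The descriptions name the scan files by letters that, if read as the letters of the titles, would exchange the groups of E2f3-deleted replicate F and control replicate B. The grouping by title is used below. Values under the other grouping are given for the 8 genes, Cavin3 and the marker lists with genes past the filter.

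The promoter windows of 4 of the genes are shown first, chosen by their signal on array H at the brightest probe sets. Cav1 and Cavin2 were lowest on H within the E2f3-deleted group, and Ehd2 and Ehd3 highest. H was not the highest at every probe set of Ehd2 and Ehd3. Each window runs from 250 bases before to 50 bases after the outermost RefSeq start site, 5′ to 3′ on the gene's strand (RefSeq, GRCm38.p6). Capitals mark matches, on either strand, to the E2F motifs TTTCCCGC and TTTGGCGC, the ETS core GGAAGT, the SP1 box GGGCGG and the TATA box TATAAA. The windows lie at chr6:17306085-17306384 (plus strand) for Cav1, chr1:51288876-51289175 (plus strand) for Cavin2, chr7:15967486-15967785 (minus strand) for Ehd2 and chr17:73804591-73804890 (plus strand) for Ehd3.
Cav1: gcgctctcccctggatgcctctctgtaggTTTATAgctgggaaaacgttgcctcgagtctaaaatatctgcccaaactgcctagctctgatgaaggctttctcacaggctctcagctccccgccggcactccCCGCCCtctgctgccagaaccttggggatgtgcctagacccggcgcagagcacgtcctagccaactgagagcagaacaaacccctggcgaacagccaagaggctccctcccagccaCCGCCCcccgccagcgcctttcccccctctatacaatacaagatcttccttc
Cavin2: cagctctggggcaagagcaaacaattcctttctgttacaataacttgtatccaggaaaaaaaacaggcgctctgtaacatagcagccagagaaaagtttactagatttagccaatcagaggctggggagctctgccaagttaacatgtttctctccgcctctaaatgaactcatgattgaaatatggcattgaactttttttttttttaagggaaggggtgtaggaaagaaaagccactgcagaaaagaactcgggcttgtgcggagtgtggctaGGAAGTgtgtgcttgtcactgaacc
Ehd2: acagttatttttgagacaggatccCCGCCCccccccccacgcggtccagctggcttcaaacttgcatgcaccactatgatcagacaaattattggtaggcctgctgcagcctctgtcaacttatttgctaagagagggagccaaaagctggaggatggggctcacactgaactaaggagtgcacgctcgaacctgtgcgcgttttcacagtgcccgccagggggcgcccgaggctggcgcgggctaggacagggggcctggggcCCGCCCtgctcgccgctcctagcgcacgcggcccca
Ehd3: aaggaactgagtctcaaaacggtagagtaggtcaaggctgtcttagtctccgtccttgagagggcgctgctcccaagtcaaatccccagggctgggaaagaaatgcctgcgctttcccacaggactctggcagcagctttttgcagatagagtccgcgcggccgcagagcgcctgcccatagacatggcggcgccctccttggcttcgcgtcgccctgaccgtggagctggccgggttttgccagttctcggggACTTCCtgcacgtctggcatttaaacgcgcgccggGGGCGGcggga

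Windows were available for 7 of the 8 genes, all but Ehd1. An SP1 box was present in 6 of the 7, against 35.7% of the 32851 windows in the table, and Cavin2 was the one without it. The Cavin2 window was also the poorest in G and C, at 43.3%, against 59.3% to 66.7% in the others and a median of 52.7% over all windows. The ETS core was present in Cav2, Cavin2 and Ehd3 (23.8% of all windows), and TATAAA in Cav1, on the strand opposite to the gene (13.6%). Neither E2F motif was found in any of the 7 windows; TTTCCCGC is in 1.07% of all windows and TTTGGCGC in 0.514%. These are matches of letters only. The shares over all windows count every listed start site, whereas the 7 windows lie at outermost ones. A window at an inner Cav1 start site held none of the motifs, and one at an inner Cavin1 start site held an SP1 box. Cav1 and Cav2 are neighbours on chromosome 6, on the same strand, with start sites 25150 bases apart and 0 protein-coding genes between them.

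The mean was higher in E2f3-deleted than in control arrays in 6 of the 8 genes (41.3% of all genes tested). It was lower in 2 of the 8 (58.7%). The higher ones were Cav1, Cav2, Cavin1, Cavin2, Ehd2 and Ehd3, with differences of 0.39 to 1.48 log2 units. Ehd1 and Ehd4 were slightly lower on average, with overlapping groups. None of the 7 genes other than Ehd2 passed an adjusted p of 0.05 in limma over the 10916 genes tested, of which 0 passed (0%; 1547 had an unadjusted p under 0.05). In 5 of the 8 genes all 4 E2f3-deleted arrays lay above all 4 controls, an arrangement seen in 4.26% of the genes tested. In 0 of the 8 the reverse held (4.22%). Ehd2, named earlier for its difference, is among the 5, so nothing is read from this count. With arrays grouped by scan file letter, 0 of the 8 genes had groups without overlap. The median difference was 0.82 over the 8 genes, Ehd2 included, and −0.03 over all genes tested, given as a description only.

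**Figure D1:**
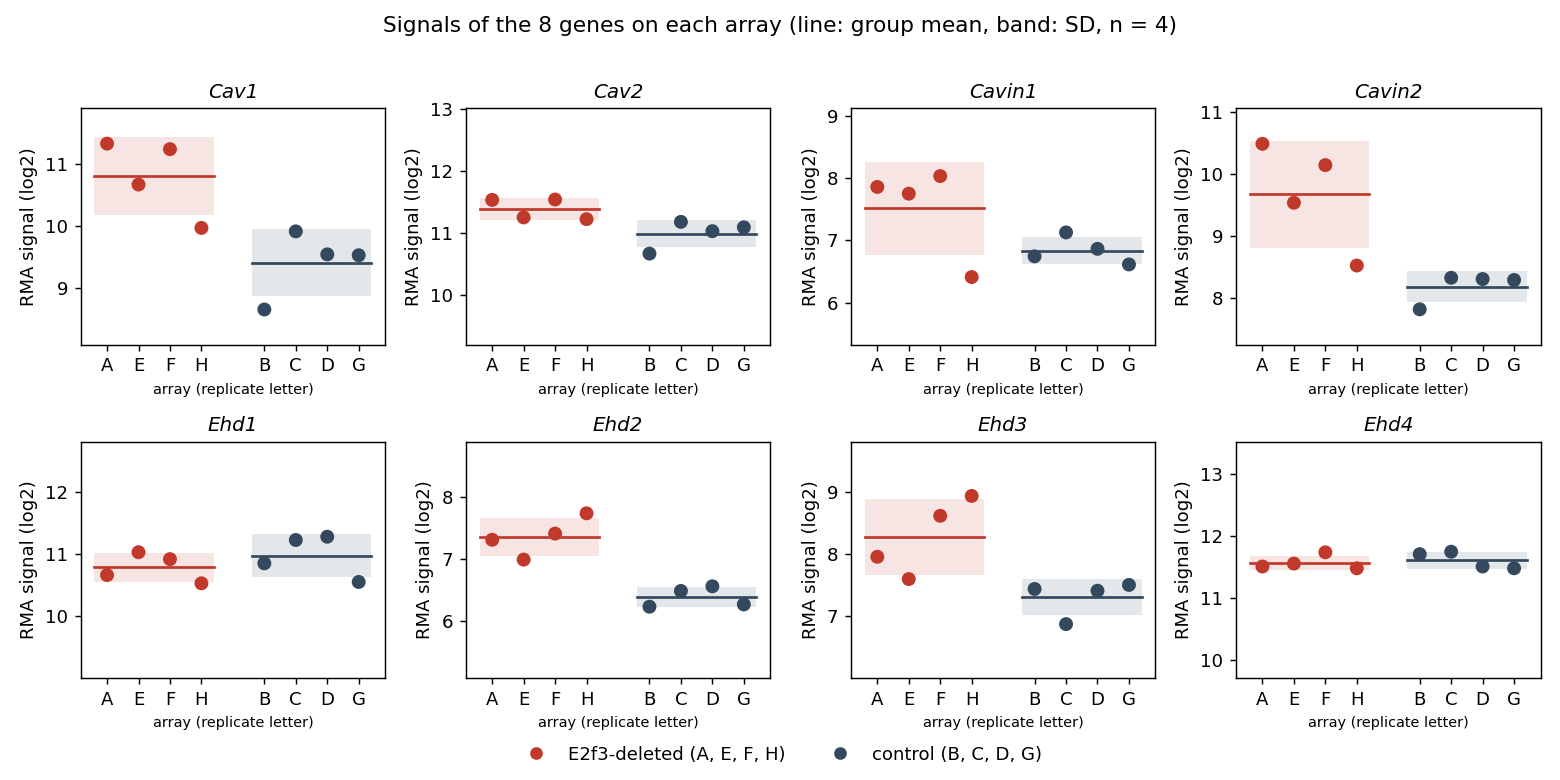
RMA signal (log2, y axis, each panel spanning 3.8 log2 units) of the 8 genes on each array (x axis, replicate letter), E2f3-deleted in red and control in grey-blue, with the group mean as a line and the SD as a band. Cav1, Cavin1 and Cavin2 are lowest on array H within the E2f3-deleted group, where Ehd2 and Ehd3 are highest, and the groups of Ehd1 and Ehd4 overlap.

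Cav1 encodes caveolin-1, without which most cells other than muscle form no caveolae. Its signal was 11.32, 10.66, 11.23 and 9.97 in E2f3-deleted A, E, F and H, against 8.66, 9.91, 9.54 and 9.53 in control B, C, D and G. Replicates A and F were highest and replicate B lowest, and the groups came close to touching, with H only slightly above C. The means were 10.80 ± 0.62 in E2f3-deleted and 9.41 ± 0.53 in control arrays (SD, n = 4 each), a difference of 1.39 or 2.62-fold (SE 0.36, limma adjusted p = 0.210). Leaving out H gave 1.66 and leaving out control B 1.14. With arrays grouped by scan file letter the difference was 0.10 (limma adjusted p = 0.977).

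Cav2 encodes caveolin-2, which joins caveolin-1 in mixed oligomers. Its brighter probe set had signals of 11.54, 11.25, 11.54 and 11.23 in E2f3-deleted A, E, F and H, against 10.67, 11.18, 11.03 and 11.09 in control B, C, D and G. The order of the arrays began as for Cav1, with A and F on top and B at the bottom, and H again exceeded C by a narrow margin. The difference was 0.39 (1.31-fold, SE 0.13, limma adjusted p = 0.267), smaller than that of Cav1. The dimmer Cav2 probe set, at 5.81 to 6.23 in E2f3-deleted and 5.87 to 6.21 in control arrays, had overlapping groups and a difference of −0.001 (SE 0.11). Under the grouping by scan file letter the brighter probe set turned to −0.041, and the mean of both probe sets gave 0.20 under the grouping by title.

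Cavin1 encodes the cavin that is needed for the caveolar coat. It had signals of 7.86, 7.75, 8.03 and 6.41 in E2f3-deleted A, E, F and H, and 6.74, 7.13, 6.86 and 6.61 in control B, C, D and G. Replicates A, E and F lay above every control, whereas H lay below every control. The difference over all arrays was 0.68 (1.60-fold, SE 0.34, limma adjusted p = 0.402). Without H it was 1.04 (SE 0.13, limma adjusted p = 0.0473), and the gene then passed the threshold, so its call depends on that array. The other Cavin1 probe sets were dim, with means of 4.38 and 3.75 over the 8 arrays, and had differences of −0.11 (SE 0.07) and −0.01 (SE 0.08). By scan file letter the brightest one differed by 0.032.

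Cavin2, also called Sdpr, encodes a cavin known for bending the membrane and for its abundance in endothelium and platelets. Its brightest probe set read 10.48, 9.54, 10.14 and 8.53 in E2f3-deleted A, E, F and H, against 7.82, 8.33, 8.31 and 8.30 in control B, C, D and G. The controls were close together apart from B, and H lay just above them. The difference of 1.48 (2.79-fold, SE 0.39, limma adjusted p = 0.210) was the highest of the 8 genes. Without H it was 1.86 (SE 0.23, limma adjusted p = 0.0473). The other Cavin2 probe sets gave 1.30 (SE 0.47) and 1.53 (SE 0.52), but on both H was at 5.998 and 5.55, below the lowest control (6.08 and 5.64). The 3 probe sets therefore had the same direction, while the lack of overlap was seen at the brightest one only. By scan file letter the difference at that probe set was 0.32.

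Ehd2 encodes the ATPase of the caveolar neck. Its brightest probe set read 7.31, 6.99, 7.41 and 7.73 in E2f3-deleted A, E, F and H, and 6.23, 6.49, 6.56 and 6.27 in control B, C, D and G. All E2f3-deleted arrays were above all controls, and H, the lowest of its group for Cavin1 and Cavin2, was the highest here. The means were 7.36 ± 0.31 in E2f3-deleted and 6.39 ± 0.16 in control arrays (SD, n = 4 each), a difference of 0.97 or 1.96-fold (SE 0.15). The probe sets next in brightness gave differences of 1.18 (SE 0.21) and 1.39 (SE 0.14), again without overlap. On the second of these, H (7.18) was not the highest but lay between E (6.96) and F (7.43). The dimmest pair, with means of 4.16 and 3.34, gave 0.28 (SE 0.10) and −0.24 (SE 0.15), so the 5 probe sets did not all have the same direction. Grouped by scan file letter, Ehd2 differed by 0.39.

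Ehd3 encodes an EHD protein of recycling endosomes. Its signal was 7.95, 7.60, 8.61 and 8.93 in E2f3-deleted A, E, F and H, against 7.44, 6.87, 7.41 and 7.502 in control B, C, D and G. H and F were highest, C was lowest, and E lay only slightly above the highest control. The difference was 0.97 (1.96-fold, SE 0.29, limma adjusted p = 0.248), and 0.75 without H. The dimmer probe set gave 0.39 (SE 0.09), with signals of 5.98 to 6.40 in E2f3-deleted arrays and 5.82 to 5.86 in controls, also without overlap. On it F (6.40) was highest and H (6.31) came next. By scan file letter the brighter one differed by 0.38.

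Ehd1 and Ehd4 act in endocytic recycling and early endosomes. Ehd1 read 10.66, 11.03, 10.92 and 10.53 in E2f3-deleted A, E, F and H, and 10.85, 11.23, 11.28 and 10.55 in control B, C, D and G. Each group spanned most of the range of the other. Its difference was −0.19 (SE 0.18, limma adjusted p = 0.640), with a 95% confidence interval from −0.61 to 0.23, and it ranged from −0.33 without control G to −0.091 without control D. Its other probe sets gave −0.31, −0.41 and −0.39, all in the same direction; one of them carries the Affymetrix suffix for probes that may match other transcripts. By scan file letter Ehd1 differed by −0.23. Ehd4 read 11.51, 11.56, 11.74 and 11.48 in E2f3-deleted A, E, F and H, against 11.71, 11.75, 11.51 and 11.48 in control B, C, D and G. Its difference was −0.04 (limma adjusted p = 0.847), with an interval from −0.24 to 0.16, and it was 0.0049 without control C and −0.055 by scan file letter.

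**Figure D2:**
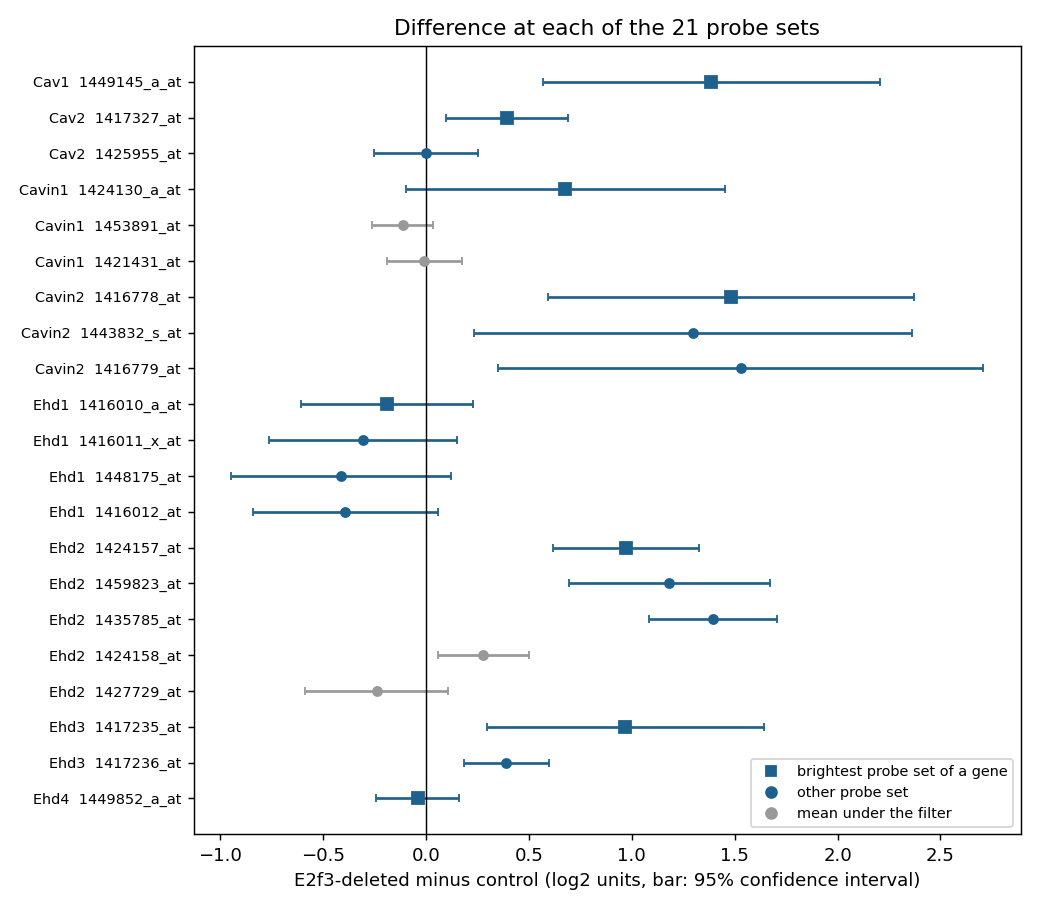
Difference in log2 signal (x axis, E2f3-deleted minus control, bars are 95% confidence intervals) at each of the 21 probe sets of the 8 genes (y axis). Squares are the brightest probe set of each gene and grey points have a mean under the filter of log2 5.998. The 3 brighter Ehd2 probe sets and the 3 of Cavin2 lie above 0, those of Ehd1 below 0, and dim probe sets lie between −0.24 and 0.28.

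The arrays of the E2f3-deleted group thus fell in different orders for different genes. Relative to the control mean, Cavin2 was 2.29, 1.35, 1.95 and 0.34 higher in A, E, F and H, and Cav1 1.91, 1.25, 1.82 and 0.56 higher. For Ehd2 the same arrays were 0.92, 0.60, 1.02 and 1.35 above the control mean and for Ehd3 0.65, 0.29, 1.31 and 1.63. Replicate E was the lowest of the 4 for Ehd2 and Ehd3. H was the lowest for Cav1, Cav2, Cavin1, Cavin2, Ehd1 and Ehd4.

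Marker lists of other cell types also differed between the arrays. Deviations below are medians over the markers that passed the filter, and list medians are over all markers with a probe set. Endothelial markers, of which 16 of 18 passed the filter, had medians of 2.03, 1.11, 2.05 and −0.02 in A, E, F and H relative to the control mean, with controls from −0.53 to 0.44. Tie1, Erg, Emcn, Robo4 and Sox18 had control means of 5.54 to 5.90 and passed the filter of 5.998 only through the E2f3-deleted arrays. The deviations and the median difference of this list therefore rest partly on markers picked by their high group. The list medians ranged from 6.44 to 8.99 in E2f3-deleted and 5.89 to 7.01 in control arrays. Pericyte and smooth muscle markers (9 of 10) had 1.34, 0.32, 1.45 and −0.41, with list medians of 7.84 to 9.17 in E2f3-deleted and 8.06 to 8.27 in control arrays. In both lists A and F were highest and H lowest, as for Cav1 and Cavin2. Fibroblast markers (12 of 12) had 0.92, −0.36, 0.00 and 1.74, with list medians of 9.58 to 11.33 in E2f3-deleted and 8.86 to 10.04 in control arrays. Mast cell markers (7 of 9) had 0.75, 1.23, −0.34 and 3.99, and list medians of 5.79 to 8.95 in E2f3-deleted and 5.56 to 6.19 in control arrays. Of these, Mcpt4, Tpsb2 and Ms4a2 had control means of 5.56 to 5.97 and likewise passed the filter only through the E2f3-deleted arrays. In the fibroblast and mast cell lists H was highest, as at the brightest probe sets of Ehd2 and Ehd3. The order of the other arrays differed: A came next for fibroblast markers and E for mast cell markers, but F for both genes. By title the median differences were 1.31 for the endothelial list, 0.73 for pericytes and smooth muscle, 0.60 for fibroblasts, 1.31 for mast cells and 0.46 for epithelium. By scan file letter they were 0.075 for the endothelial list, −0.13 for pericytes and smooth muscle, 0.49 for fibroblasts, 1.58 for mast cells and −0.16 for epithelium. The part of these cells in the differences of the 8 genes was not tested. In sorted bulk RNA, a change in the number of cells of a type and a change in RNA per cell cannot be told apart.

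Macrophage markers (14 of 14) were lower in E2f3-deleted arrays in 13 and higher in 1, with a median difference of −0.14. Of all genes tested, 58.7% were lower and 41.3% higher. In 4 of the 14 markers the groups did not overlap, with E2f3-deleted lower (4.22% of all genes tested). Of the 5 adipocyte markers with a probe set, 0 passed the filter, and the list medians were 3.38 to 4.72 in E2f3-deleted and 3.61 to 4.09 in control arrays. Platelet markers (3 of 6) had list medians of 5.15 to 5.36 in E2f3-deleted and 5.15 to 5.42 in control arrays. Lymphocyte markers (2 of 8) had 4.93 to 5.78 in E2f3-deleted and 5.16 to 6.22 in control arrays. By title the median differences were −0.14 for macrophage, −0.033 for platelet and −0.37 for lymphocyte markers. By scan file letter they were −0.076, −0.027 and −0.23. Epithelial markers (12 of 12) were all higher on average in E2f3-deleted arrays, against 41.3% of all genes tested. The same held for all 16 endothelial, 12 fibroblast and 7 mast cell markers tested. The median difference of the epithelial markers was 0.46, with list medians of 8.72 to 9.75 in E2f3-deleted and 8.25 to 9.45 in control arrays. Their deviations were 0.31, 0.83, 0.77 and −0.18 in A, E, F and H, with controls from −0.39 to 0.74. H was the lowest of its group, as for Cav1 and Cavin2, but the highest was E here and A for both genes. The Gapdh signal at the 3′ end exceeded that at the 5′ end by 1.87, 1.48, 1.59 and 1.73 in A, E, F and H. In the controls the excess was 1.39 to 1.53. A larger excess is a sign of less intact RNA, and its part in the results was not tested.

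**Figure D3:**
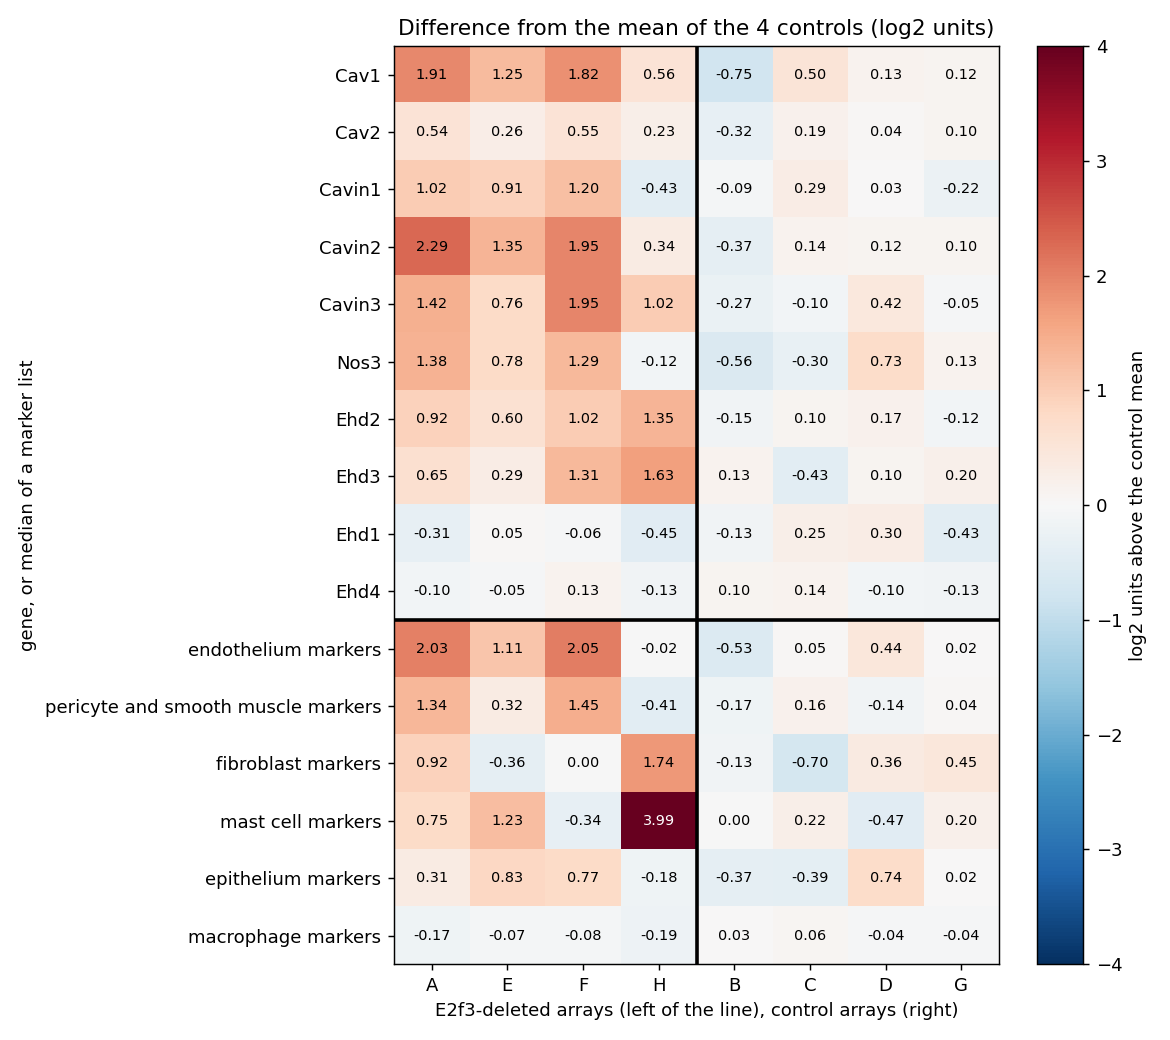
Difference from the mean of the 4 control arrays (log2 units, colour and printed values) for each array (x axis, E2f3-deleted arrays left of the line and controls right of it) of the 8 genes, Cavin3 and Nos3, and of the median of 6 marker lists over genes past the filter (below the line). On array H, Cavin1, Nos3, Ehd1, Ehd4 and the endothelial, pericyte, epithelial and macrophage lists are below 0. Ehd2, Ehd3 and the fibroblast and mast cell lists are at their highest there.

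Partners of caveolae were examined as a list of 11 genes, of which 10 had a probe set and 5 passed the filter. Of these, 0 passed an adjusted p of 0.05, and 3 were higher and 2 lower (41.3% and 58.7% of all genes tested). Their median difference was 0.07. Cavin3, a further coat protein, read 7.95, 7.28, 8.48 and 7.55 in E2f3-deleted A, E, F and H, against 6.26, 6.43, 6.95 and 6.48 in control B, C, D and G. All E2f3-deleted arrays were above all controls, including H, which lay below the controls for Cavin1. The difference was 1.29 (2.44-fold, SE 0.26, limma adjusted p = 0.169), and 0.18 with overlapping groups by scan file letter. Pacsin3, of a family of membrane-bending proteins, differed by 0.19 (SE 0.05, limma adjusted p = 0.237) at its brightest probe set, also without overlap. Its dimmer probe sets gave 0.23 and 0.12, with overlapping groups. Dnm2, the dynamin that cuts vesicles from the membrane, had −0.12 (limma adjusted p = 0.477), and the flotillins of other membrane microdomains, Flot1 and Flot2, had −0.10 and 0.07 (limma adjusted p = 0.677 for both). These 3 genes had overlapping groups.

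Pacsin2 was the listed partner without a probe set annotated with that symbol alone. The remaining partners had a probe set but were under the filter. Nos3, the nitric oxide synthase of endothelium that binds caveolin-1, read 6.94, 6.34, 6.85 and 5.44 in E2f3-deleted A, E, F and H, and 4.998, 5.26, 6.29 and 5.69 in control B, C, D and G. A, E and F exceeded every control and H did not. Ror1, a receptor reported to scaffold caveolar proteins in human cells, read 6.33 on H at its brightest probe set. It read 4.54 to 4.88 there on A, E and F and 3.80 to 4.597 in the controls. The dimmer Ror1 probe sets differed by −0.12 and 0.01. H was the lowest array on the first of these (4.03) and the highest on the other (3.53). The muscle forms Cav3 and Cavin4 and the neuronal Pacsin1 were dim, with differences of 0.08, −0.03 and −0.05.

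The recycling partners of EHD proteins were examined as a second list. Of 18 genes 17 passed the filter, 6 higher and 11 lower (41.3% and 58.7% of all genes tested). Their median difference was −0.08, against −0.03 over all genes tested, and 0 passed an adjusted p of 0.05. An unadjusted p under 0.05 was reached by 0 higher genes and by 1 lower gene, in a background of 7.27% and 6.9% of all genes tested. That gene was Rab8a, a GTPase of recycling tubules, at −0.18 (SE 0.07, limma adjusted p = 0.323). The next by p were Snap29, a SNARE protein, at −0.19 (SE 0.09), Myof, the membrane repair protein myoferlin, at −0.27 (SE 0.14), and Vps35 of the retromer at −0.11 (SE 0.06). Ehbp1, which links EHD proteins to actin, had a difference of 0.62 (SE 0.35, limma adjusted p = 0.447) and was named after its values were seen. It read 8.70 on H and 7.86 on F, against 7.18 and 6.88 on A and E and 6.95 to 7.09 in the controls, and without H its difference was 0.28.

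**Figure D4:**
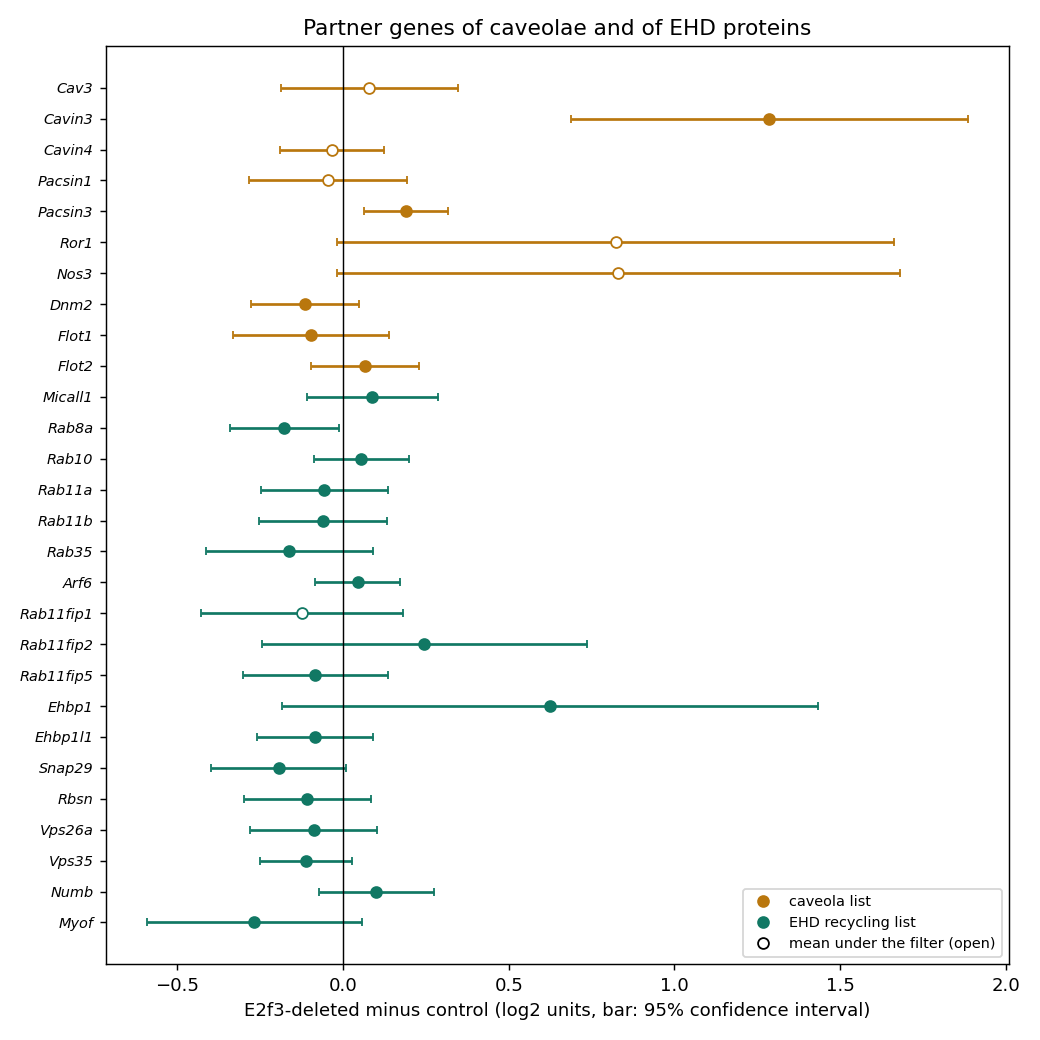
Difference in log2 signal (x axis, E2f3-deleted minus control, bars are 95% confidence intervals) of the brightest probe set of 10 caveola partners (ochre) and 18 EHD recycling partners (green), one gene per row (y axis). Open points have a mean under the filter. Cavin3 at 1.29 stands to the right of the other genes, and most recycling partners lie between −0.3 and 0.3.

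The genes whose signals were most like those of each member over the 8 arrays were ranked by Pearson's r among 10908 other tested genes. Such r values are the highest of many and come from arrays that share a group structure, so they are a description only. Cav1 was closest to Fabp4, a fatty acid-binding protein (r = 0.988), Plekhg1 (0.987) and Lims2 (0.978), and Cav2 to Fabp4 (0.974), the Notch ligand Jag1 (0.964) and the phosphatase Ptprm (0.958). Fabp4 itself had a difference of 2.005. Cavin1 was closest to Ndufa4l2 (0.993), Eng, the endothelial receptor endoglin (0.973), and Hoxd9 (0.966). Cavin2 was closest to She (0.990), Epas1, a hypoxia-inducible factor (0.988), and Art3 (0.987).

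The EHD genes had other neighbours. Ehd2 was closest to Gask1b (0.978), Pgm5 (0.973) and Afap1l1 (0.973), and Ehd3 to Dock9, an activator of Cdc42 (0.981), the actin-associated Synpo (0.981) and Dag1, dystroglycan (0.980). Ehd1 was closest to 1810064F22Rik (0.964), Plekhn1 (0.959) and 4932431P20Rik (0.951), and Ehd4 to Rnf10 (0.961), Arntl (0.953) and Necab2 (0.951). No gene was among the 3 nearest of more than 1 member, other than Fabp4. With the 2 arrays farthest from the member's median left out, the lowest of these 24 values was 0.873, for Arntl with Ehd4.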

How the data were processed

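Total RNA of F4/80+ tumour-associated macrophages was extracted with Trizol and made into biotinylated cRNA, per the labels' protocols. The authors deposited 1 log2 value for each of 45101 probe sets on each of 8 arrays, computed with RMA per the submitters' processing notes. The sources used here name neither its version nor the set of arrays normalized jointly. RMA forces arrays to a common distribution, which hides any shift that most genes share. The number of arrays limits the precision.

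Probe sets were named from GEO's platform annotation: 34945 had exactly 1 symbol, for 18193 genes. Affymetrix control probe sets were left out. Each gene was represented by its probe set with the highest mean, and genes under the 40th percentile of these means (log2 5.998) were left out. All 8 genes described passed, each through a filter on the mean of all arrays. The two-sided test was limma (version 3.58.1, R 4.3.3; functions lmFit and eBayes) with Benjamini-Hochberg adjustment over the 10916 genes tested, with 4 arrays a group and no covariate. Dimmer probe sets were fitted among all probe sets with 1 symbol. Members and lists were chosen with earlier results of these data known. Genes named are the 8 members, all caveola partners, the 4 recycling partners with the smallest p and the 3 nearest genes of each member; Ehbp1 and E2f3, the targeted gene, are exceptions. Alternatives were other probe set summaries, filters, normalizations, variance priors, array weights, each array left out, an adjusted p of 0.1 and groups by scan file letter.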

Additional observations from a re-analysis of the deposited data

Results flagged for a closer look

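In 4 of the 44 groups of 4 arrays examined (22 genes), 1 array lay far from the other 3 by Dixon's ratio, and chance flags about 1 in 20 groups. Control replicate B was low for Cavin2, at 7.82 against 8.30 for the nearest control, and high for Cavin4, at 4.68 against 4.53. Control replicate C was low for Ehd3, at 6.87 against 7.41. Control replicate G was low for Flot1, at 10.63 against 10.74.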

How the results depend on the processing

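The median difference of the 8 genes, 0.82, ranged from 0.68 to 0.85 when each array was left out in turn. It was 0.44 with the mean of each gene's probe sets, which brings in the dim probe sets, and 0.065 when scan file letters set the groups, which exchanges E2f3-deleted replicate F and control replicate B; the cause of this second shift was not tested. The number of genes past an adjusted p of 0.05 in limma was 0 and ranged from 0 to 60 with each array left out. It was 60 without E2f3-deleted replicate E (57 higher, 3 lower) and 14 without replicate H (14 higher). Cavin1 and Cavin2 were among those without H (limma adjusted p = 0.0473 for both). The difference of Ehd2, a description only, was 1.10 without E. The count stayed at 0 under every other alternative run. Ehd4 ranged from −0.10 to 0.0049 with each array left out, and Cav2 was −0.041 by scan file letter; no other difference of the 8 genes turned its sign under the alternatives that gave a value for it. Cavin1, Ehd2 and Ehd3 were under the filter at the 60th percentile and gave none there. With the mean of its probe sets Cavin1 was also under the filter and was not tested, but its difference there, 0.18, is counted in the median of 0.44. No paired analysis was possible because the groups share no replicate letters. Genes with dim probe sets are limited by the signal over background, which the deposited values do not give.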
